A study of Mus musculus with 24 samples.

Results

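The wake response of mouse cerebral cortex was compared between astrocyte ribosome-bound RNA and the RNA left behind by the pull-down. For each gene, the change from sleep to waking in the unbound fraction was taken away from the same change in the bound fraction, and this was repeated with sleep deprivation in place of waking. The comparison used 24 of the 24 arrays and was described across all 18193 genes tested. A positive difference means that the gene moved further upward, or less far downward, in the bound fraction than in the unbound one.

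The mice were adult heterozygous carriers of aldh1l1 - eGFP-L10a, in which the Aldh1l1 promoter drives a GFP-tagged ribosomal protein, so that only cells in which this promoter is active carry the tag. All groups carried this transgene, and their strain and exact age were not given in the sources used here. The bound waking, bound sleep deprived and bound sleep groups held 6 arrays each, with 1 mouse per array. The unbound waking, unbound sleep deprived and unbound sleep groups held 2 arrays each, with the RNA of 3 mice pooled on each array (animals 1 to 3 and animals 4 to 6), and these were the mice of the bound arrays. Waking mice were killed in the dark phase, between 3 and 5 am, at the end of over 1 h awake and with at least 70% wakefulness in the 6 to 7 h before. Sleep deprived mice had been awake for most of the dark phase and were then kept awake with new objects for 4 h of the light phase. Mice of the sleep group were killed in the light phase, between 3 and 5 pm, at the end of over 45 min asleep and with at least 75% sleep in the 6 to 7 h before. Waking and sleep thus differed in time of day as well. Bound and unbound RNA were purified with different kits.

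In translating ribosome affinity purification, antibodies to GFP pull down tagged ribosomes with the mRNA on them, while the supernatant keeps the RNA of neurons, oligodendrocytes, microglia and vessels and whatever astrocyte RNA escapes. Wakefulness is known to raise activity-dependent immediate early genes in cortex, and forced wakefulness also raises glucocorticoid-responsive genes. Both kinds of gene are expressed in neurons and in glia, so the bound fraction alone does not show how a wake response compares with that of the other cells. Because both fractions are bulk samples, fewer cells of a type and less RNA per cell cannot be told apart.

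The deposited values were log2 intensities, and array medians ran from 5.65 to 5.88 in the bound and from 5.50 to 5.84 in the unbound fraction. Exactly equal values of a probe set occurred in all 48 pairs of arrays of the same group and in 0 of 228 pairs from different groups. If arrays were normalized group by group, state and normalization run cannot be told apart, and values were therefore quantile-normalized again within each fraction. The driver gene Aldh1l1 had a mean log2 level of 10.90 in the bound and 7.03 in the unbound fraction, and Rpl10a, the gene of the tagged protein, had 13.02 and 11.70. The median standard deviation of genes above the median level was 0.35 to 0.36 log2 units within bound groups of 6 and 0.14 to 0.15 between the 2 pools of an unbound group. The 2 ranges are not like measures, since an unbound array pools 3 mice. Bound arrays of animals 1 to 3 and of animals 4 to 6 lay apart for some genes, which adds to the spread within bound groups. Bhlhe41 for example had 9.65, 9.82 and 9.75 in bound sleep arrays of animals 1 to 3. Those of animals 4 to 6 had 6.79, 6.81 and 7.09, and the unbound sleep pools had 5.80 and 5.78. The labels do not say whether mice came from separate litters. The p-values rest on 1 spread per gene, which mixes the spread between these single mice, between the animal sets and between pools.

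Sequences are shown for the promoters of 4 immediate early genes, Nr4a1, Maff, Fos and Dusp1, because all 4 were called higher than in sleep in both fractions and both states. Each run is the 250 bases before the start given by RefSeq (GRCm38.p6), on the strand of the gene. Capitals mark TGACG or its reverse complement CGTCA, the core of the cyclic AMP response element, searched on both strands, and the full element TGACGTCA, which holds both cores in overlap.
Nr4a1 (chr15:101266596-101266845, plus strand): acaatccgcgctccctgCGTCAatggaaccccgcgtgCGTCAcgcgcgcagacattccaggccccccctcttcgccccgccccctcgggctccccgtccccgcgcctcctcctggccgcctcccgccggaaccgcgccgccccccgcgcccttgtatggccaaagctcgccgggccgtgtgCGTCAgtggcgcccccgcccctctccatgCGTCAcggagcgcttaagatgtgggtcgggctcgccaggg
Maff (chr15:79347270-79347519, plus strand): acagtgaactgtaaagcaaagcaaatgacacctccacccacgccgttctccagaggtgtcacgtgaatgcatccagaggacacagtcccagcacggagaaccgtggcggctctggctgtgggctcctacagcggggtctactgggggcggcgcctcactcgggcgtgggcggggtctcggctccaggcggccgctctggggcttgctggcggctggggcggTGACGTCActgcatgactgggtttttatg
Fos (chr12:85473640-85473889, plus strand): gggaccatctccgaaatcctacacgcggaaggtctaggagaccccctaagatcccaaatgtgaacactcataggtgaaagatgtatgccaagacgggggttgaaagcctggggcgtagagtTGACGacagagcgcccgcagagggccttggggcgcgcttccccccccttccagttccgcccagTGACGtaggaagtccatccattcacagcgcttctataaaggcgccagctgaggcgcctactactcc
Dusp1 (chr17:26508473-26508722, minus strand): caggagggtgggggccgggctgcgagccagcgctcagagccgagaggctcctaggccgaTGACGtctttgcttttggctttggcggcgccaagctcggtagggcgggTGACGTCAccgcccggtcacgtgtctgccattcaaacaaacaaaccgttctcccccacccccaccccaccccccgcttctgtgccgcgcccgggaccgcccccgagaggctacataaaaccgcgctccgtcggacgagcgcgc
The core was found at 4 places in Nr4a1, 2 in Maff, 2 in Fos and 3 in Dusp1, and the full element at 1 place each in Maff and Dusp1. Maff has 3 starts in the table, and the window printed is the 1 that holds the full element. Of the 32851 promoter windows of this length in the table, 17.8% held the core and 1.55% the full element. A match describes the letters only.

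Across all genes, the difference between fractions passed the test (limma, Benjamini-Hochberg adjusted p under 0.05) for 847 genes in waking and for 902 in sleep deprivation. In waking 462 genes (2.54% of those tested) had a positive and 385 (2.12%) a negative difference. After sleep deprivation 510 genes (2.8%) had a positive and 392 (2.15%) a negative one. The median difference of all genes was 0.0054 in waking and 0.0013 in sleep deprivation on the log2 scale. With the deposited values as they stand the median in waking was -0.22 and the split turned to 343 positive and 675 negative, so the balance of signs in waking depends on the scaling. In sleep deprivation the deposited values had a median of -0.065, with 529 positive and 361 negative. The 2 contrasts share the sleep arrays of both fractions, so their values are given side by side and not counted against each other.

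Most of these calls came from dim genes. A gene is called dim where its mean lay below the median of all probe sets in both fractions (5.78 in bound, 5.67 in unbound), which was so for 5888 genes, or 32.4% of those tested. Of the called genes 703 (83.0%) were dim in waking and 713 (79.0%) in sleep deprivation. With genes split by mean level into 10 bins of equal size, the share called was 12.2% in waking and 14.0% in sleep deprivation in the lowest bin, and 0.385% and 0.989% in the highest bin. In addition 1695 genes (9.32%) had exactly equal deposited values in both pools of at least 1 state, and such genes made up 22.0% of the waking and 20.5% of the sleep deprivation calls. Without the dim genes, 32 of 12305 genes (0.26%) were called in waking and 31 (0.252%) in sleep deprivation, while 887 and 1066 had an unadjusted p under 0.05.

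**Figure D1:**
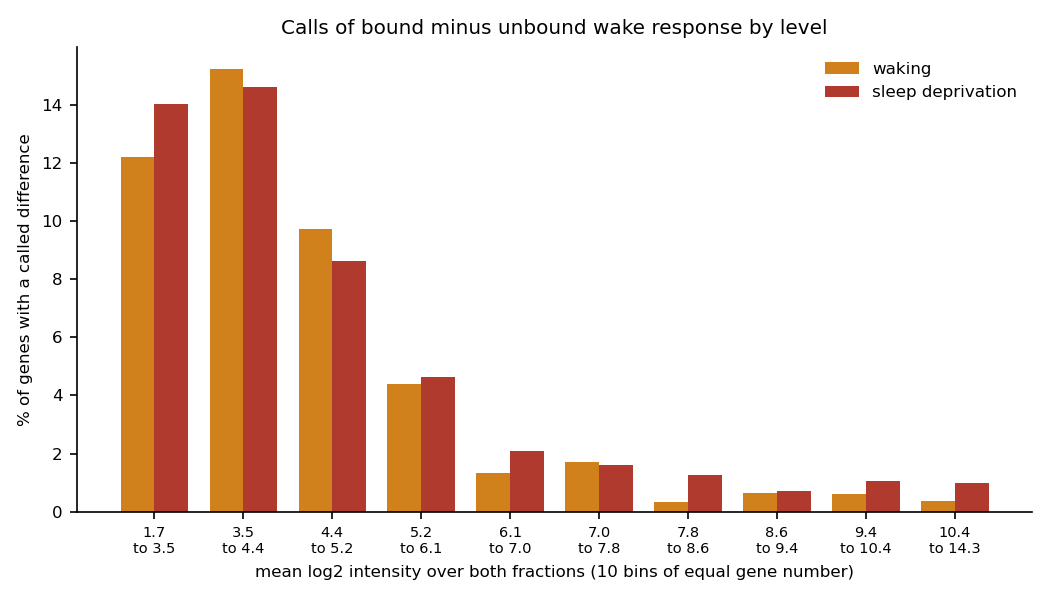
Share of genes with a called difference between fractions (adjusted p under 0.05, %) in 10 bins of the mean log2 intensity over both fractions, for waking and for sleep deprivation. The share lies between 12.2% and 15.2% in the 2 lowest bins and between 0.385% and 1.04% in the 2 highest.

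The called differences lay mostly on the side of the unbound fraction. In waking the unbound effect was the larger one in absolute size for 80.7% of the genes called higher and 77.4% of those called lower, and in sleep deprivation for 74.9% and 72.7%. Bound and unbound effects had opposite signs in 403 of the 462 genes called higher in waking and in 333 of the 385 called lower. The unbound groups hold 2 arrays and the bound groups 6, so the unbound term has the larger standard error. Picking genes by a large difference therefore favours those with a large unbound effect, and these shares do not show which fraction responded more. Where a called gene above the median level had a second probe set, that one had the same sign in 46 of 69 cases in waking and in 56 of 103 in sleep deprivation (66.7% and 54.4%). It was itself called with that sign in 3 cases in each. Of the genes called without dim genes, 15 in waking and 22 in sleep deprivation had several probe sets. All probe sets of a gene shared the sign in 7 and 9 of these.

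When animals 1 to 3 and 4 to 6 were entered as a block within states, 1057 genes were called in waking and 1157 in sleep deprivation. Without dim genes the block raised the counts to 65 in waking and 119 in sleep deprivation, against 32 and 31 without it. When the bound arrays were first averaged to match the pools, which leaves 12 values and 3 residual degrees of freedom, limma called 0 genes in either contrast, and 2026 and 2053 genes had an unadjusted p under 0.05. Within animals 1 to 3 alone 388 genes were called in waking and 401 in sleep deprivation, and within animals 4 to 6 alone 12 and 6. Without 1 of the 4 unbound pools of the states compared, the counts were 441 to 542 in waking and 489 to 516 in sleep deprivation.

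A minority of the wake responses passed in both fractions. Among genes above the median level, the waking effect passed for 469 in bound and for 173 in unbound RNA, and 31 did so in both, which is 6.61% of the bound and 17.9% of the unbound calls. Of all 12305 such genes, 3.81% were called in bound and 1.41% in unbound waking. Both effects come from 1 fit with 1 spread per gene, so genes of small spread can pass in both together. The overlap therefore cannot be judged against these background shares. Of the 31, 27 moved the same way, and the change was larger in the unbound fraction for 25 of them. Unbound effects have the larger standard error (groups of 2 arrays against 6), so passing there takes a larger change. For genes that passed in both, counts of the larger change are partly set by this selection, also in sleep deprivation. For sleep deprivation the counts were 665, 225 and 37 (5.56% and 16.4%, against background shares of 5.40% in bound and 1.83% in unbound RNA), with 28 the same way and the unbound change larger for 24. Over all genes 8.42% were called in bound waking, 4.42% in unbound waking, 10.5% in bound sleep deprivation and 4.54% in unbound sleep deprivation. A called difference between fractions was found for 1 of the 27 and for 1 of the 28. With dim genes included, 185 genes passed in both fractions in waking, and 99 of these moved the same way. After sleep deprivation 213 did so, and 116 of these moved the same way. Across all genes, which are not independent replicates, the bound and unbound effects had a Pearson r of 0.092 in waking and 0.13 in sleep deprivation.

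**Figure D2:**
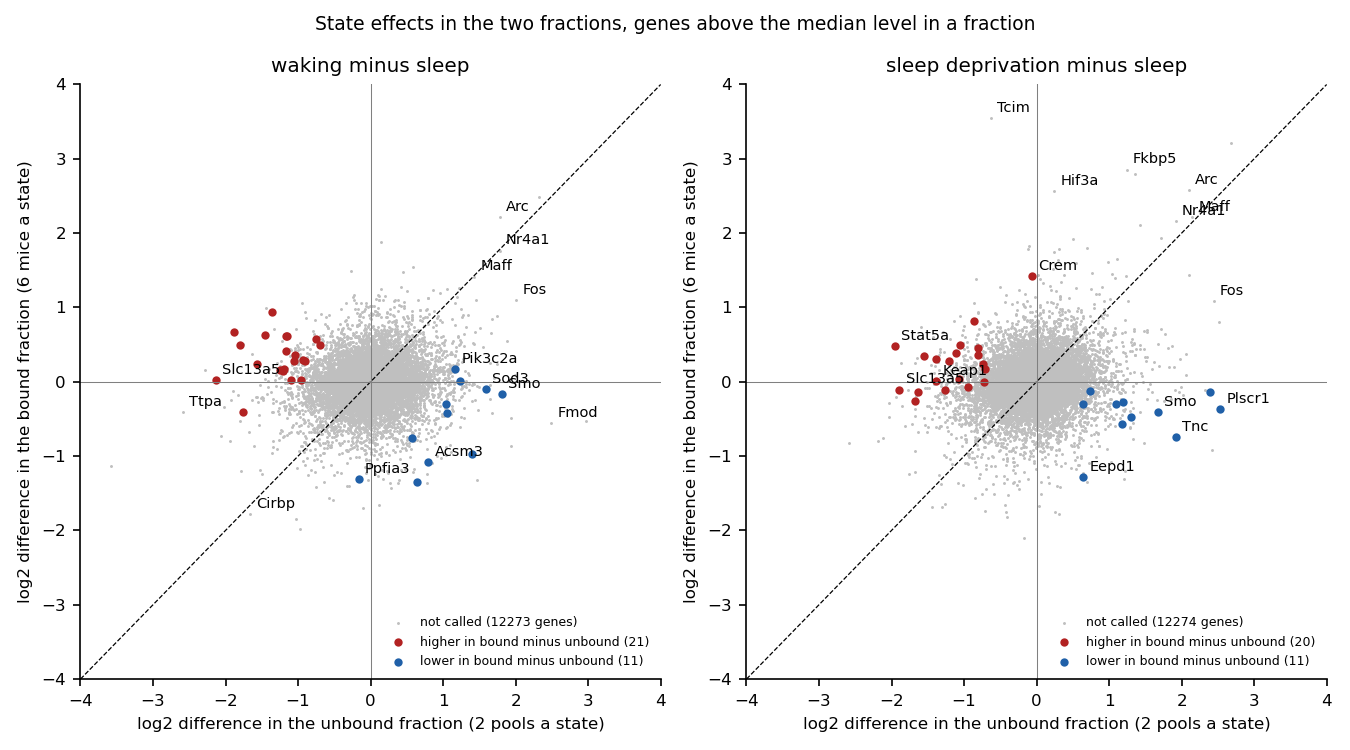
Log2 difference of waking (left) or sleep deprivation (right) from sleep in the bound fraction (vertical) against the unbound fraction (horizontal), for the 12305 genes above the median level in a fraction. Points are genes; red and blue ones have a called positive or negative difference in the fit without dim genes (21 and 11 in waking, 20 and 11 in sleep deprivation), and the dashed line marks equal effects. Nr4a1, Maff and Cirbp lie near that line in waking, whereas most coloured points lie along the horizontal axis.

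Nr4a1, which encodes an orphan nuclear receptor induced within minutes of stimulation, rose in both fractions and by about the same amount. In the bound fraction its lowest, median and highest log2 intensity were 7.22, 8.68 and 8.93 in waking, 8.30, 8.69 and 9.45 in sleep deprivation, and 6.20, 6.45 and 7.01 in sleep. The unbound pools had 8.66 and 9.03 in waking, 8.86 and 9.09 in sleep deprivation, and 7.37 and 6.75 in sleep. In both fractions every waking and every sleep deprived array lay above every sleep array. The waking effect was 1.76 in bound and 1.78 in unbound RNA, a difference of -0.018 (95% interval -1.11 to 1.07, adjusted p = 0.998). The sleep deprivation effect was 2.16 in bound and 1.92 in unbound RNA, a difference of 0.24 (-0.85 to 1.33, adjusted p = 0.935). The promoter printed above holds 4 cores and no full element.

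Maff, a small basic leucine zipper factor, also had nearly equal effects in both fractions. Its bound values were 6.90, 7.35 and 7.86 in waking, 7.72, 8.07 and 8.84 in sleep deprivation, and 5.19, 5.89 and 6.69 in sleep (lowest, median and highest). Its unbound values were 5.86 and 6.03 in waking, 6.83 and 6.49 in sleep deprivation, and 4.49 and 4.54 in sleep. No waking or deprived array overlapped the sleep arrays of its fraction, and the unbound sleep pools lay below the unbound median. The difference between fractions was -0.011 in waking (-0.91 to 0.89) and 0.068 in sleep deprivation (-0.83 to 0.97).

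Fos, a subunit of the AP-1 transcription factor, rose further in the unbound fraction, but the difference did not pass. In the bound fraction it had 7.92, 8.46 and 9.06 in waking, 7.91, 8.27 and 9.41 in sleep deprivation, and 6.59, 7.43 and 7.96 in sleep (lowest, median and highest). The unbound pools had 8.68 and 9.26 in waking, 9.16 and 9.66 in sleep deprivation, and 7.24 and 6.68 in sleep. Bound waking and sleep deprived arrays overlapped slightly with bound sleep arrays, while the unbound pools did not overlap. The difference was -0.91 ± 0.51 in waking (SE, adjusted p = 0.439) and -1.36 ± 0.51 in sleep deprivation (adjusted p = 0.149).

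Dusp1, a phosphatase that shuts off MAP kinases, had bound values of 10.62, 10.88 and 11.21 in waking, 10.78, 11.08 and 11.29 in sleep deprivation, and 9.91, 10.19 and 10.49 in sleep (lowest, median and highest). Its unbound values were 10.63 and 10.72 in waking, 9.97 and 10.14 in sleep deprivation, and 8.99 and 9.34 in sleep. No waking or deprived array overlapped the sleep arrays of its fraction. The bound effect was 0.72 and the unbound effect 1.51 in waking (difference -0.78 ± 0.26, adjusted p = 0.0941), and both were 0.89 in sleep deprivation (difference -0.0022 ± 0.26). Arc, which acts at neuronal synapses, had bound and unbound effects of 2.21 and 1.78 in waking and of 2.58 and 2.10 in sleep deprivation. Its difference of 0.48 after sleep deprivation had an interval of -0.84 to 1.80. Egr2, a zinc finger factor, had an interval of -1.70 to 2.75 around a difference of 0.53 in sleep deprivation.

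Across the list of 32 immediate early genes, 10 rose in bound waking and 4 rose in unbound waking, where 1 fell, with median effects of 0.35 and 0.46. After sleep deprivation 15 rose in bound and 6 in unbound RNA, with median effects of 0.65 and 0.75. Of all genes, 8.42% were called in bound and 4.42% in unbound waking, in either direction. For sleep deprivation these shares were 10.5% and 4.54%. The difference between fractions passed for 1 of 32 in waking and 0 of 32 in sleep deprivation, and its median was 0.00062 and 0.085. Over all genes, the background of positive calls of this difference is 2.54% and 2.8%. With the deposited values 1 was called higher and 3 lower in waking. The 1 call was Atf3, a stress-induced repressor of the same factor family. This gene is dim and had equal deposited values in both pools of at least 1 state. Its bound values were 4.09, 4.42 and 5.31 in waking and 4.30, 4.50 and 4.81 in sleep (lowest, median and highest), and its unbound values were 3.87 and 3.94 in waking and 5.41 and 5.21 in sleep. The unbound pools were lower in waking while the bound arrays overlapped, which gave a difference of 1.39 ± 0.36 (adjusted p = 0.0256). The call was lost without any 1 of the 4 unbound waking or sleep pools, where the difference lay between 1.28 and 1.49.

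Cirbp, a cold-inducible RNA-binding protein, fell in waking in both fractions. In sleep deprivation it fell in bound RNA (by 1.17), and the unbound effect of -0.69 did not pass (adjusted p = 0.192). The bound fraction had 9.09, 9.63 and 9.85 in waking, 9.61, 10.09 and 10.72 in sleep deprivation, and 11.17, 11.32 and 11.51 in sleep (lowest, median and highest). The unbound pools had 8.91 and 9.18 in waking, 9.84 and 10.20 in sleep deprivation, and 10.81 and 10.61 in sleep. Waking, sleep deprived and sleep arrays did not overlap in either fraction, apart from bound waking and bound sleep deprived arrays. The difference between fractions was -0.12 ± 0.32 in waking and -0.48 ± 0.32 in sleep deprivation (adjusted p = 0.964 and 0.537).

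Gjb6, Mertk and Ppp1r3c, which are enriched in astrocytes, rose in both fractions in waking and in sleep deprivation. Gjb6, which encodes the astrocyte gap junction protein connexin 30, had bound and unbound effects of 0.54 and 0.87 in waking and of 0.63 and 0.91 in sleep deprivation. Mertk, a receptor for engulfing cell debris, had 0.54 and 0.82 in waking and 0.55 and 0.99 in sleep deprivation. The glycogen-targeting phosphatase subunit gene Ppp1r3c had bound values of 11.46, 11.53 and 11.68 in waking and 11.03, 11.15 and 11.23 in sleep (lowest, median and highest), and unbound values of 8.21 and 8.36 in waking and 7.38 and 7.15 in sleep. Waking lay above sleep without overlap in both fractions, and further so in the unbound one, with a difference of -0.61 ± 0.16 in waking (adjusted p = 0.0288). The call was lost without dim genes (adjusted p = 0.206) and in 12 of 43 alternatives, and 1 of the 2 probe sets had this sign. Without an unbound waking pool or the sleep pool of animals 4 to 6 it was also lost, at differences of -0.68 to -0.49. Of 28 astrocyte markers, Ppp1r3c was the 1 called in waking (negative), and 0 were called in sleep deprivation. Of all genes, 2.12% had a negative call in waking, and 2.8% a positive and 2.15% a negative one in sleep deprivation. Aldh1l1 itself had differences of 0.28 ± 0.26 and 0.57 ± 0.26, and Rpl10a 0.25 ± 0.42 and -0.036 ± 0.42, none of which passed.

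**Figure D3:**
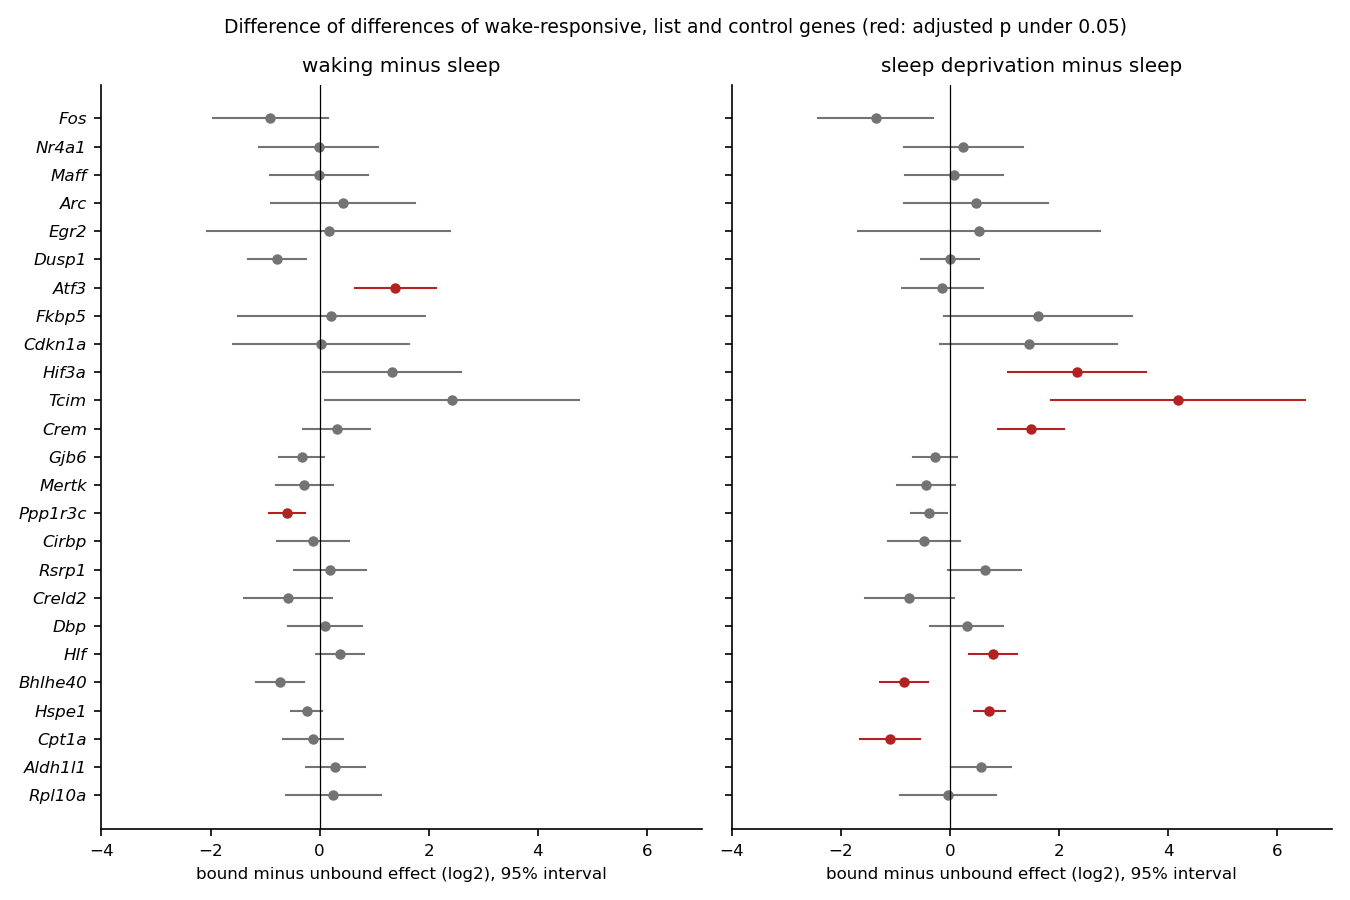
Difference between fractions (bound minus unbound effect, log2) with its 95% interval for 25 genes, in waking (left) and in sleep deprivation (right). Red marks an adjusted p under 0.05 over all 18193 genes: Atf3 and Ppp1r3c in waking, and Hif3a, Tcim, Crem, Hlf, Bhlhe40, Hspe1 and Cpt1a in sleep deprivation. The intervals of Nr4a1, Maff and Cirbp cover 0 in both panels.

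In Crem, Hif3a, Tcim and Eepd1 the bound effect of sleep deprivation was the larger one, and Crem and Eepd1 were picked after their values were seen. Crem, which encodes a modulator of cyclic AMP responsive transcription, rose in sleep deprivation in bound RNA, and its unbound effect did not pass. It had 8.75, 9.17 and 9.47 in bound sleep deprived, 7.97, 8.09 and 8.44 in bound waking and 7.36, 7.58 and 8.09 in bound sleep arrays (lowest, median and highest). The unbound pools had 8.80 and 8.54 in sleep deprivation, 8.71 and 9.11 in waking, and 8.73 and 8.73 in sleep. All 6 bound sleep deprived arrays lay above all bound sleep and waking arrays, whereas the unbound pools overlapped. The bound effect was 1.43 and the unbound effect -0.060, a difference of 1.48 ± 0.29 (adjusted p = 0.00358, and 0.0324 without dim genes). The sign was shared by 3 of its 4 probe sets, and the difference was 1.35 within animals 1 to 3 and 1.62 within animals 4 to 6. In waking the difference was 0.31 ± 0.29 (adjusted p = 0.767).

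Hif3a, a hypoxia-inducible factor subunit and a glucocorticoid-responsive gene, rose steeply in bound RNA. Its bound values were 9.16, 9.91 and 10.55 in sleep deprivation, 7.60, 8.42 and 9.14 in waking, and 6.55, 7.16 and 8.27 in sleep (lowest, median and highest). Its unbound values were 5.80 and 6.16 in sleep deprivation, 6.01 and 5.02 in waking, and 5.28 and 6.19 in sleep, close to the median of all probe sets. The sleep deprived bound arrays lay above all others and the unbound pools overlapped. The difference was 2.32 ± 0.61 in sleep deprivation (adjusted p = 0.0272), positive in 6 of 6 probe sets, and 1.32 ± 0.61 in waking (adjusted p = 0.288). The first call was lost in 12 of 43 alternatives, among them the fit without dim genes (adjusted p = 0.118) and those without either sleep deprived pool or without the sleep pool of animals 4 to 6 (1.87 to 2.50).

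Tcim, a small protein also known as TC1, had the largest positive difference in sleep deprivation. Its bound values were 7.05, 9.04 and 9.78 in sleep deprivation, 4.92, 5.73 and 7.92 in waking, and 3.87, 5.01 and 6.46 in sleep (lowest, median and highest). Its unbound values were 4.88 and 4.71 in sleep deprivation, 4.61 and 3.35 in waking, and 5.42 and 5.42 in sleep. Bound sleep deprived arrays lay above bound sleep arrays without overlap, while the unbound pools all lay below the median of all probe sets. The difference was 4.18 ± 1.12 (adjusted p = 0.0308, and 0.125 without dim genes), at 5.70 within animals 1 to 3 and 2.66 within animals 4 to 6, and the call was lost without any 1 of the 4 unbound pools compared (4.09 to 4.26). It was 2.43 ± 1.12 in waking (adjusted p = 0.288).

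Eepd1, which encodes a protein with a nuclease-like domain, moved the opposite way. It had 6.12, 6.71 and 6.97 in bound sleep deprived and 7.40, 8.03 and 8.28 in bound sleep arrays (lowest, median and highest), against 7.43 and 7.67 in unbound sleep deprived and 6.85 and 6.96 in unbound sleep pools. The bound fraction was lower and the unbound fraction higher in sleep deprivation, with no overlap in either. The difference was -1.93 ± 0.31 (adjusted p = 0.000622, and 0.00589 without dim genes), negative in 2 of 2 probe sets.

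Of the 26 glucocorticoid-responsive genes, 12 rose and 1 fell in bound sleep deprivation and 5 rose in unbound sleep deprivation, against 10.5% and 4.54% of all genes called in either direction. The difference between fractions was called for Hif3a alone (positive, against 2.8% of all genes), with a list median of -0.0027. Fkbp5, a co-chaperone of the glucocorticoid receptor, had a bound effect of 2.85 and an unbound effect of 1.24, a difference of 1.61 with an interval of -0.11 to 3.33 (adjusted p = 0.356). The cell cycle inhibitor gene Cdkn1a had 2.80 and 1.36, a difference of 1.44 with an interval of -0.18 to 3.06 (adjusted p = 0.394). Within animals 1 to 3 the differences of Fkbp5 and Cdkn1a were 2.76 and 2.57, and within animals 4 to 6 they were 0.46 and 0.31. In waking the list had 1 call, Lcn2 (negative, against 2.12% of all genes). This gene encodes lipocalin 2 and is dim, with a difference of -0.95 ± 0.26 (adjusted p = 0.0397). That call was lost without 11 of the 24 arrays, taken out in turn.

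**Figure D4:**
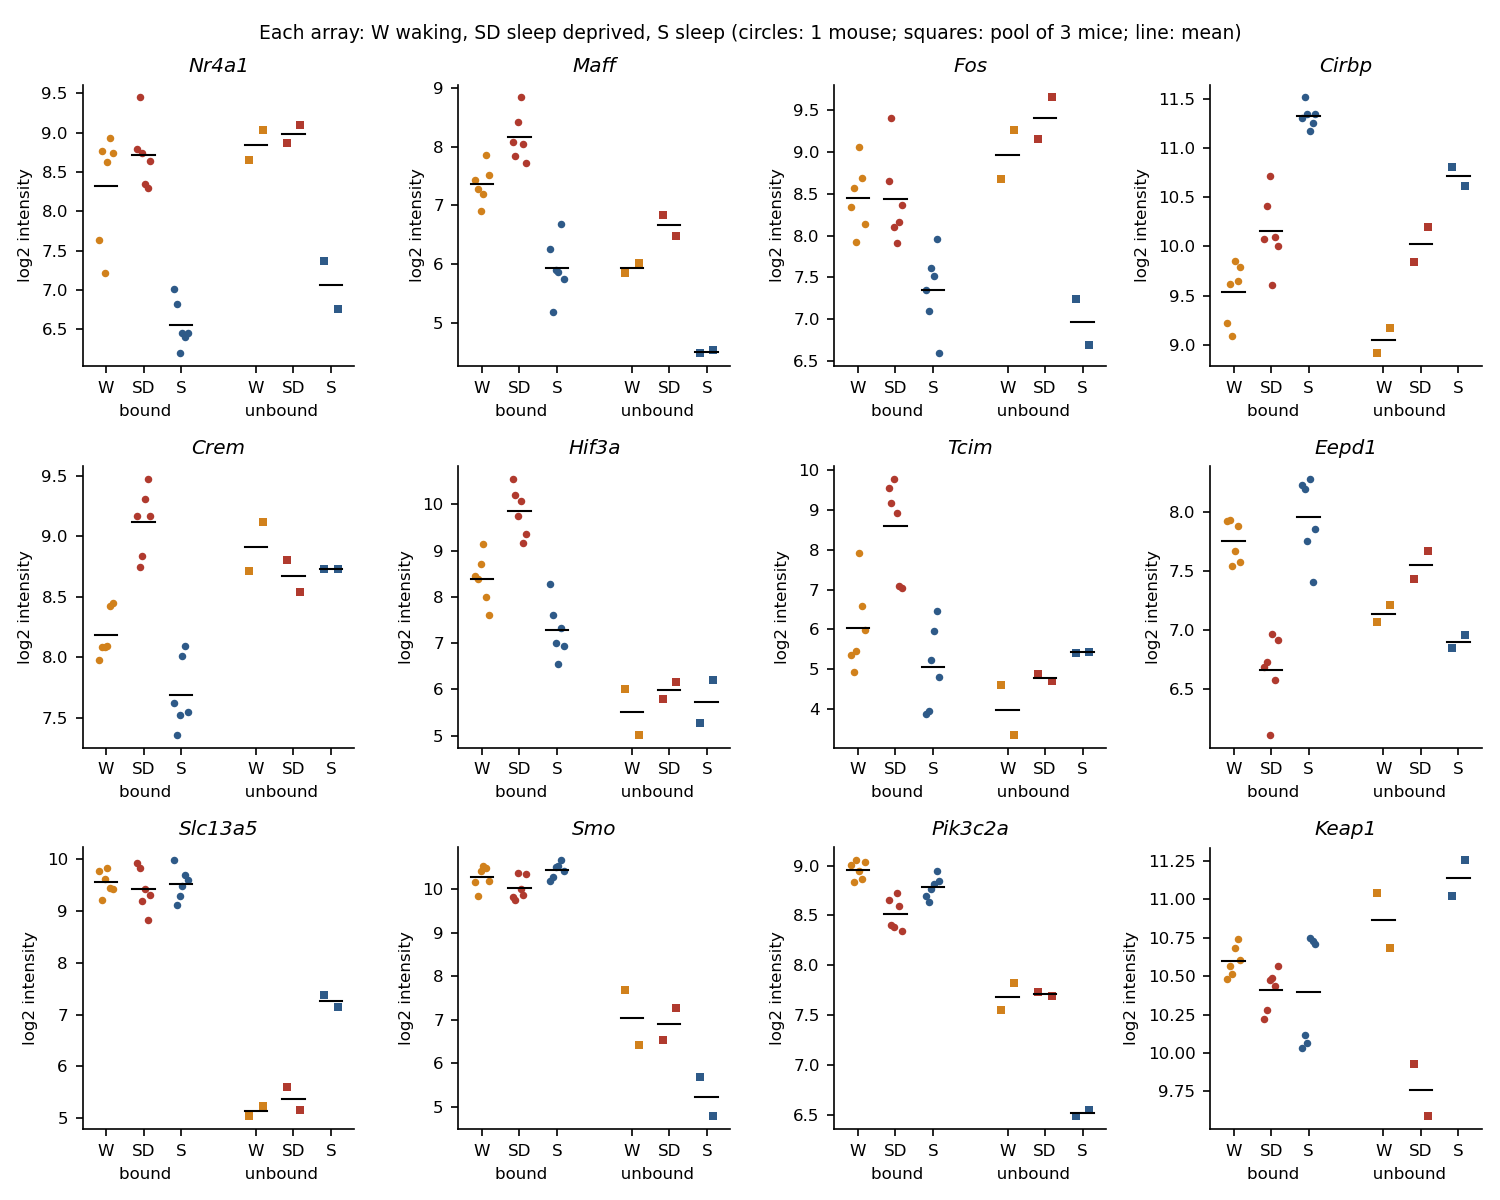
Log2 intensity of 12 genes in each array, after quantile normalization within fractions, by group (W waking, SD sleep deprived, S sleep), with the bound fraction left of the unbound one. Circles are single mice, squares pools of 3 mice, lines group means; the vertical axes differ between genes and do not start at 0. Nr4a1, Maff, Fos and Cirbp move in both fractions, Crem, Hif3a and Tcim in bound arrays, and Slc13a5, Smo, Pik3c2a and Keap1 mainly in unbound pools, while Eepd1 is low in bound sleep deprived arrays.

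Without dim genes, the unbound effect was the larger one for 28 of the 32 genes called in waking. The same was so for 29 of the 31 called in sleep deprivation. The unbound term has the larger standard error, so picking genes by a large difference favours a large unbound effect. These counts thus do not show which fraction responded more. Leaving out dim genes keeps genes that are dim in 1 fraction only. Without genes dim in either fraction, 6 were called in waking and 20 in sleep deprivation. Slc13a5 is given by the rule for named genes, whereas Smo, Pik3c2a, Sod3, S100a4, Irf1, Kat6b, Acsm3, Ppfia3, Sirt6, Itga6, Srpk1 and Acy3 were picked after their values were seen. Slc13a5, a citrate transporter of the cell membrane, was level in bound RNA at 9.21, 9.54 and 9.83 in waking, 8.83, 9.37 and 9.93 in sleep deprivation, and 9.12, 9.54 and 9.98 in sleep (lowest, median and highest). The unbound pools had 5.03 and 5.23 in waking, 5.59 and 5.15 in sleep deprivation, and 7.38 and 7.14 in sleep. The 3 bound groups overlapped, whereas waking and deprived pools lay below both sleep pools. The difference was 2.15 ± 0.35 in waking (adjusted p = 0.000905) and 1.78 ± 0.35 in sleep deprivation (adjusted p = 0.00358), but 1 of the 2 probe sets had this sign in each. Both contrasts rest on the same 2 unbound sleep pools.

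Smo, the membrane protein that relays Hedgehog signals, was the reverse case. Its bound values were 9.86, 10.31 and 10.54 in waking, 9.76, 9.95 and 10.37 in sleep deprivation, and 10.19, 10.48 and 10.67 in sleep (lowest, median and highest). Its unbound values were 7.68 and 6.42 in waking, 6.54 and 7.27 in sleep deprivation, and 5.69 and 4.79 in sleep. All waking and sleep deprived pools lay above both sleep pools, but pools of the same state differed visibly, while the bound groups overlapped. The difference was -1.97 ± 0.40 in waking and -2.08 ± 0.40 in sleep deprivation (adjusted p = 0.00503 and 0.00322), with this sign in 2 and in 1 of the 3 probe sets. Without the unbound sleep pool of animals 4 to 6 the call was lost in both contrasts (-1.52 and -1.62), and in waking also without the waking pool of animals 1 to 3 (-1.34).

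Pik3c2a, a class II phosphoinositide kinase, had tighter pools. The unbound values were 7.55 and 7.82 in waking, 7.73 and 7.69 in sleep deprivation, and 6.49 and 6.55 in sleep, and the bound values lay between 8.34 and 9.05 in all 18 arrays. Its difference was -0.996 ± 0.18 in waking and -1.46 ± 0.18 in sleep deprivation (adjusted p = 0.00177 and 6.16e-05), negative in 2 and in 3 of the 3 probe sets. Within animals 1 to 3 and 4 to 6 the sleep deprivation difference was -1.46 and -1.46.

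Among the genes called lower in waking without dim genes was Sod3, an extracellular superoxide dismutase, with bound values from 10.03 to 10.73 in waking and from 10.08 to 10.70 in sleep. Its unbound pools had 6.77 and 7.22 in waking and 5.26 and 5.55 in sleep. This gave a difference of -1.69 ± 0.26 (adjusted p = 0.000553), negative in 2 of 2 probe sets. S100a4, a calcium-binding protein, had a difference of -1.46 ± 0.22, Irf1, an interferon-responsive factor, one of -1.33 ± 0.26, and the histone acetyltransferase gene Kat6b one of -1.22 ± 0.21. The Irf1 call was lost without the waking pool of animals 1 to 3 (-1.08).

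Acsm3 and Ppfia3 were 2 of the 4 genes called in waking without dim genes in which the bound effect was the larger one. Acsm3, a mitochondrial acyl-CoA synthetase, had 5.11, 5.57 and 5.79 in bound waking and 6.27, 6.61 and 6.92 in bound sleep arrays (lowest, median and highest), against 7.68 and 7.39 in unbound waking and 7.05 and 6.43 in unbound sleep pools. Bound waking lay below bound sleep in every array, and unbound waking above unbound sleep. Its difference was -1.88 ± 0.29 (adjusted p = 0.000519). Ppfia3, the presynaptic scaffold liprin-alpha 3, had 5.52, 5.76 and 5.95 in bound waking and 6.94, 7.06 and 7.21 in bound sleep arrays, against 7.82 and 7.70 in unbound waking and 8.06 and 7.78 in unbound sleep pools. Its bound effect of -1.31 stood beside an unbound effect of -0.16 (difference -1.14 ± 0.22, adjusted p = 0.0028).

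Genes called higher in waking without dim genes included Sirt6, Itga6 and Srpk1, each lower in the unbound waking pools. Sirt6, a nuclear deacylase, had a difference of 1.13 ± 0.21, with unbound values of 8.02 and 8.34 in waking and 9.18 and 9.38 in sleep. Itga6, an integrin subunit, had 1.41 ± 0.29, with unbound values of 5.51 and 5.55 in waking and 7.13 and 6.42 in sleep. Srpk1, a kinase of splicing factors, had 1.40 ± 0.28, but 2.21 within animals 1 to 3 and 0.59 within animals 4 to 6. The Srpk1 call was lost without the waking or the sleep pool of animals 1 to 3 (1.03 and 1.10), and the Itga6 call without that sleep pool (1.05). Acy3, an aminoacylase, rose in bound (0.61) and fell in unbound waking (-1.16).

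By the rule for named genes, the 15 largest positive differences in waking lay between 2.15 and 2.71, and 10 of the 15 genes were dim. They were P2ry6, Ccdc8, Ankrd1, Milr1, Ctla2b, Igbp1b, Clec10a, Rimbp3, Tmbim7, Slc38a4, Asb11, Tmem67, Adgrf5, Ttpa and Slc13a5. P2ry6, a receptor for UDP, is dim and so was not in the fits without dim genes. It led with 2.71 ± 0.61 (adjusted p = 0.0101). Its bound values were 5.21, 5.80 and 6.43 in waking and 3.83, 4.52 and 5.55 in sleep (lowest, median and highest). Its unbound values were 5.39 and 4.65 in waking and 6.86 and 6.33 in sleep. Bound waking arrays were mostly higher than bound sleep arrays, with overlap, and both waking pools were lower than the sleep pools. Without the waking pool of animals 4 to 6 or the sleep pool of animals 1 to 3 the call was lost (2.34 and 2.45). Ttpa, the transfer protein for alpha-tocopherol, was bright in bound arrays (9.15 to 9.81 in waking, 9.69 to 10.05 in sleep) and low in the pools (3.06 and 4.52 in waking, 6.22 and 6.53 in sleep). Its difference of 2.18 ± 0.48 passed over all genes (adjusted p = 0.009) and missed the threshold without dim genes (adjusted p = 0.0606), without the waking pool of animals 1 to 3 (1.45) and without the sleep pool of animals 4 to 6 (2.03).

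The 15 largest negative differences in waking lay between -3.04 and -2.22, and 12 of the 15 genes were dim. They were Fmod, Ttf2, Enkur, Mup10, Ak8, S100a3, Cxcl5, Zcwpw2, Gstt3, Chek2, Tex52, Slco1a4, Macc1, Fas and Cyp2d40. Fmod, the collagen-binding proteoglycan fibromodulin, had unbound values of 8.10 and 10.90 in waking against 7.04 and 6.98 in sleep, so 1 of the waking pools lay far above the other. Its difference was -3.04 ± 0.77 (adjusted p = 0.0229), and it was -1.64 and no longer called without that pool, and -1.56 within animals 1 to 3 and -4.53 within animals 4 to 6. Gstt3, a glutathione transferase, was lower in bound waking (6.50, 7.43 and 7.88 against 7.95, 8.28 and 8.48 in sleep) and higher in the unbound pools (4.16 and 4.72 against 3.01 and 3.08). Its difference of -2.37 ± 0.38 was the 1 of the 15 that was also called without dim genes (adjusted p = 0.00651), a filter it passed through its bound arrays alone, with all unbound pools below the unbound median. Cxcl5, a neutrophil-attracting chemokine, differed through the bound arrays (2.51, 2.96 and 4.02 in waking, 4.97, 5.36 and 5.63 in sleep), below the median of all probe sets.

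In sleep deprivation the 15 largest positive differences lay between 1.98 and 4.18, and 10 of the 15 genes were dim. They were Tcim, P2ry6, Skor1, Stat5a, Zfp758, Hif3a, Gdap10, Inhbc, Prokr2, Fgl2, Fsip1, Tmem67, Lrrc6, Aoc3 and Ccdc8. Stat5a, a transcription factor activated by cytokine receptors, was the 1 also called without dim genes, a filter it passed through its bound arrays, since its unbound pools lay below the unbound median. It had 7.46, 7.93 and 8.36 in bound sleep deprived and 7.16, 7.46 and 7.78 in bound sleep arrays (lowest, median and highest), against 2.88 and 3.20 in unbound sleep deprived and 5.15 and 4.84 in unbound sleep pools. The bound groups overlapped and the pools did not, which gave 2.44 ± 0.30 (adjusted p = 6.16e-05) with this sign in 1 of the 2 probe sets.

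Outside the rule, and so picked after values were seen, Keap1, Stx16, Hspe1 and Oxtr were called higher without dim genes, each through a lower level in the unbound sleep deprived pools. Keap1, the adaptor that marks the antioxidant factor NRF2 for breakdown, had 9.93 and 9.59 in those pools and 11.02 and 11.25 in the unbound sleep pools, while bound arrays lay between 10.22 and 10.56 in sleep deprivation and between 10.03 and 10.75 in sleep. Its difference was 1.39 ± 0.27 (adjusted p = 0.00344), positive in 2 of 2 probe sets, and bound sleep arrays of animals 1 to 3 lay apart from those of animals 4 to 6. Stx16, a SNARE protein of the Golgi, had 1.90 ± 0.27, and 1.90 within both sets of animals. Oxtr, the oxytocin receptor gene, had 1.42 ± 0.25, with this sign in 1 of the 2 probe sets. Hspe1, the mitochondrial chaperonin 10 gene, had 11.32 and 11.39 in unbound sleep deprived and 12.09 and 12.07 in unbound sleep pools, and between 12.79 and 12.97 in all bound arrays of these states. Its difference of 0.71 ± 0.14 (adjusted p = 0.00297) was the 1 call among 22 heat shock chaperones, against 2.8% of all genes called higher.

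The 15 largest negative differences in sleep deprivation lay between -3.34 and -2.11, and 9 of the 15 genes were dim. They were Erv3, Plscr1, Ttk, Tnc, Plekhg4, Tmem120a, Myh2, Slco5a1, Kcns1, Catsper3, Lpar2, Emilin2, Fbp1, Catsper1 and Zscan20. In all 15 the unbound effect was the larger one. Plscr1, a phospholipid scramblase, had 6.94, 7.19 and 8.14 in bound sleep deprived and 7.23, 7.69 and 8.41 in bound sleep arrays, against 5.42 and 6.04 in unbound sleep deprived and 2.69 and 3.71 in unbound sleep pools (difference -2.89 ± 0.54, adjusted p = 0.00254). Tnc, the extracellular matrix protein tenascin C, had unbound values of 5.74 and 6.78 in sleep deprivation and 4.44 and 4.24 in sleep, and overlapping bound values (difference -2.67 ± 0.56, adjusted p = 0.00584, with this sign in 1 of the 2 probe sets). The Tnc call was lost without the sleep deprived pool of animals 4 to 6 (-2.15). Trib2, a pseudokinase, and E2f6, a repressor of the E2F family, which are outside the rule, had -1.39 ± 0.24 and -0.86 ± 0.15.

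In the list of 14 clock repressors and outputs, 2 differences were called in sleep deprivation (1 positive and 1 negative) and 0 in waking. Of all genes, 2.8% had a positive and 2.15% a negative call in sleep deprivation. In waking Bhlhe40 had -0.73 ± 0.21 (adjusted p = 0.0515). With the deposited values 3 of the 14 were called lower in waking and 1 in sleep deprivation. Hlf, a clock-controlled leucine zipper factor, fell in sleep deprivation in the unbound pools (10.35 and 10.57 in sleep deprivation, 11.05 and 11.41 in sleep) and not in bound arrays (11.24 to 11.69 and 11.27 to 11.51), with a difference of 0.78 ± 0.21 (adjusted p = 0.0302). Bhlhe40, a repressor of clock genes, was lower in bound sleep deprived arrays (10.80, 10.96 and 11.18 against 11.14, 11.30 and 11.55 in sleep) and higher in the pools (10.27 and 10.69 against 10.04 and 9.91), with a difference of -0.85 ± 0.21 (adjusted p = 0.0199). Neither Hlf nor Bhlhe40 was called without dim genes (adjusted p = 0.149 and 0.112) or without the sleep pool of animals 4 to 6 (0.60 and -0.78) or the sleep deprived pool of these animals (0.90 and -0.64). Dbp, a clock output of the same family as Hlf, fell in both fractions after sleep deprivation, by 0.98 in bound and by 1.28 in unbound RNA.

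Of 22 endoplasmic reticulum chaperones and unfolded protein response genes, 3 rose in bound and 1 in unbound waking, and 0 rose, 1 fell in bound and 3 rose in unbound sleep deprivation. The shares called over all genes were 8.42%, 4.42%, 10.5% and 4.54%, and 0 differences between fractions were called in either state. Creld2, which responds to unfolded protein, had bound and unbound effects of 0.74 and 1.32 in waking (difference -0.58 ± 0.39). Of 20 genes of fatty acid oxidation, 1 was called in sleep deprivation (negative, against 2.15% of all genes), Cpt1a, which lets fatty acids into mitochondria. Its bound values lay between 10.20 and 10.91 in sleep deprivation and between 10.41 and 10.69 in sleep, and its unbound values were 6.06 and 6.79 in sleep deprivation and 5.49 and 5.44 in sleep (difference -1.10 ± 0.27, adjusted p = 0.0165, lost without dim genes at adjusted p = 0.0905, and at -0.73 without the sleep deprived pool of animals 4 to 6). In waking its difference was -0.12 ± 0.27.

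In the 4 highest of the 10 bins of level, 0.330% to 0.660% of genes were called in waking and 0.715% to 1.26% in sleep deprivation, so 0 calls in a list of bright genes is near the background. In the lower bins 1.32% to 15.2% were called in waking and 1.59% to 14.6% in sleep deprivation. Lists at lower levels, such as the red blood cell markers (0 of 3 above the median level in a fraction), are not covered by the first shares. No difference was called in either contrast among 25 neuron, 14 oligodendrocyte, 9 oligodendrocyte precursor, 11 ependymal and choroid plexus and 10 meningeal markers, nor among 24 splicing regulators, 20 genes of cholesterol synthesis, 31 actin genes, 20 synaptic vesicle genes and 33 respiratory chain subunits. The same held for 8 clock activators, 20 glycolysis genes, 15 genes of potassium and water homeostasis and gap junctions, 12 of glutamate and GABA uptake, 17 glutamate and GABA receptor subunits, 19 translation factors and 3 red blood cell markers. Of 24 ribosomal protein genes, Rps2 was called higher in waking (0.63 ± 0.15) and in sleep deprivation (0.53 ± 0.15), and Rpl37 lower in waking (-0.88 ± 0.18, dim). Median differences of the neuron markers were -0.049 in waking and -0.0047 in sleep deprivation. Those of the 10 meningeal markers were -0.52 in waking (9 negative, 1 positive) and -0.34 in sleep deprivation (8 negative, 2 positive). Over all genes 2.54% were called higher and 2.12% lower in waking, and 2.8% and 2.15% in sleep deprivation. Of 15 microglia markers, Itgam (0.98 ± 0.21, dim) and Trem2 (1.28 ± 0.32) were called higher in sleep deprivation, and the mean level of the whole list was 5.90 to 6.65 in bound sleep deprived and 6.19 to 6.53 in bound sleep arrays, against 6.87 to 6.94 in unbound sleep deprived and 7.08 to 7.43 in unbound sleep pools. The part of microglial RNA in these differences was not tested. Both calls were lost without the sleep deprived pool of animals 4 to 6 (0.90 for Itgam, 1.15 for Trem2). Of 14 endothelial markers, 4 lay above the median level in a fraction. Among the others, Slco1a4, an anion transporter of brain vessels, is dim and had equal deposited values in both pools of at least 1 state. It was called lower in waking (-2.30 ± 0.52) and in sleep deprivation (-1.89 ± 0.52). Leaving out 1 array ended the first call in 2 and the second in 7 of 24 cases. Both were lost without the sleep pool of animals 4 to 6 (-1.93 and -1.52), the first also without the waking pool of these animals (-2.28), and the second also without either sleep deprived pool (-1.88 and -1.90) or any 1 of 4 bound arrays (-1.84 to -1.76). The list's mean level was 5.42 to 5.72 in bound waking, 5.03 to 5.65 in bound sleep deprived and 5.32 to 5.50 in bound sleep arrays, against 5.25 to 5.36 in unbound waking, 5.38 to 5.55 in unbound sleep deprived and 5.12 to 5.24 in unbound sleep pools. Myh11, a smooth muscle myosin gene and 1 of 11 pericyte and smooth muscle markers, was called higher in sleep deprivation (0.91 ± 0.24, dim), a call lost without any 1 of the 4 unbound pools compared (0.77 to 1.05).

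Whether sleep deprivation and waking differed in the gap between fractions was tested directly, by a contrast without the sleep groups. The sleep arrays still shared in the normalization and in the spread per gene. The difference of the 2 differences passed for 698 genes (3.84%), 343 positive and 355 negative, of which 565 (80.9%) were dim, and for 27 genes without the dim ones. With the deposited values 691 were positive and 243 negative. A fit on the 16 arrays of sleep deprivation and waking called 540 genes, 497 of them among the 698. Without dim genes and with animals 1 to 3 and 4 to 6 as a block, 74 genes passed. Prokr2, a receptor for prokineticins, is dim and so was not in the fits without dim genes. It had unbound values of 3.60 and 3.42 in sleep deprivation and 6.18 and 5.96 in waking. Its bound values ran from 3.43 to 3.96 in both (difference 2.64 ± 0.26, adjusted p = 5.75e-06). The rule also gave Ankrd44, Dnajb13, Il13ra1 and Dram1 as positive and En2, Serpinh1 and Glb1l as negative. Ikzf1, a lymphoid transcription factor, had 4.17, 4.68 and 4.97 in bound sleep deprived and 4.98, 5.79 and 6.39 in bound waking arrays, against 6.53 and 6.52 in unbound sleep deprived and 5.19 and 4.89 in unbound waking pools. Here both fractions moved, in opposite directions and without overlap (difference -2.61 ± 0.41, adjusted p = 0.000737, and 0.00508 without dim genes). Dusp10, another MAP kinase phosphatase, did likewise, with 5.91, 6.37 and 6.68 in bound sleep deprived and 6.94, 7.13 and 7.60 in bound waking arrays, against 7.27 and 7.00 in unbound sleep deprived and 5.55 and 5.14 in unbound waking pools (difference -2.58 ± 0.36, adjusted p = 0.000271).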

How the data were processed

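RNA of 18 bound and 6 pooled unbound cortex samples had been hybridized to Affymetrix mouse genome arrays. The deposited log2 intensities were made with RMA per the submitters' processing notes, which give no version. After 64 control probe sets were left out, values were quantile-normalized within each fraction, and 18193 genes were tested, each by its brightest probe set (of 34945 with 1 symbol, 34741 matched RefSeq by Entrez ID). Models with 6 groups and no block were fitted in limma 3.58.1 (R 4.3.3) with 18 residual and 3.04 prior degrees of freedom and Benjamini-Hochberg adjustment over all genes at 0.05. The number of arrays limits precision: the median standard error of a difference was 0.41 for genes above the median level. The contrasts, gene lists and rule for named genes (15 largest called differences in each direction, 5 for sleep deprivation against waking, skipping unnamed transcripts, plus list members, Aldh1l1 and Rpl10a) were chosen with earlier results of these data known. Labels give bound arrays and pools the same animals, and deviations of a pool and its 3 bound arrays correlated at -0.044 to 0.034. With animal set within state as a random block, arrays of a block correlated at 0.23. That fit called 1171 genes in waking and 1260 in sleep deprivation. The fit was also run on simulated data with independent noise, 1 spread per gene in both fractions and no animal set effect. That run cannot show how unequal spread, animal sets or normalization by group affect the calls. Figures used matplotlib 3.10.9, numpy 2.4.6 and pandas 2.3.3.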

Additional observations from a re-analysis of the deposited data

Results flagged for a closer look

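The effect of waking or of sleep deprivation differed between the fractions for 847 and 902 genes by the test of that difference itself, and the gap between fractions differed between sleep deprivation and waking for 698 genes. The 10 genes that the rule names for the last were Ankrd44 (3.27), Dnajb13 (3.13), Il13ra1 (3.11), Prokr2 (2.64), Dram1 (2.52), Ikzf1 (-2.61), Dusp10 (-2.58), En2 (-2.57), Serpinh1 (-2.40) and Glb1l (-2.34), with the difference on the log2 scale.

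In 12 of the 255 bound groups of 6 arrays looked at for the named genes, 1 array stood apart from the other 5 by Dixon's criterion, which chance gives in about 1 group of 20. In bound waking these were Atf3 (5.31, nearest other array 4.48), Dbp (12.48, nearest 11.95), Dusp10 (7.60, nearest 7.13), Il13ra1 (5.42, nearest 6.27), Lcn2 (4.85, nearest 4.55), Milr1 (4.98, nearest 3.06) and Sirt6 (8.60, nearest 8.93). In bound sleep deprivation they were Cpt1a (10.91, nearest 10.45), Fgl2 (5.16, nearest 3.52) and Sod3 (10.54, nearest 10.19). In bound sleep they were Fgl2 (2.04, nearest 2.95) and Rsrp1 (6.90, nearest 7.47).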

How the results depend on the processing

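All counts here are genes called in the waking difference of differences, the sleep deprivation difference of differences and the sleep deprivation minus waking difference of differences, in that order, against 847, 902 and 698 as reported. They were 32, 31 and 27 without dim genes, 49, 58 and 41 with a limit of 1.5-fold, 388, 401 and 298 within animals 1 to 3, and 12, 6 and 17 within animals 4 to 6. They were 1393, 1463 and 1219 with a separate variance for each fraction, 1453, 1607 and 1317 with animal set as a batch term within fractions, and 1782, 1810 and 1486 with every probe set tested. Alternatives chosen after seeing the data gave 6, 20 and 17 without genes dim in either fraction, 63, 24 and 48 without dim genes on deposited values, and 65, 119 and 74 without dim genes and with animal set as a block. With 12 matched values and the replicate block the counts were 0, 0 and 0 in limma (2026, 2053 and 1848 at an unadjusted p under 0.05). Leaving out 1 array gave 441 to 878, 489 to 904 and 369 to 740, with the lowest counts all without an unbound pool. The other alternatives moved the counts by less than 1.5 times. The block over all genes made Bhlhe40 in waking pass (adjusted p = 0.0333) and ended no named call. Of 3099 alternatives of the 75 called gene differences, 2691 kept the call, 408 lost it and 0 reversed. The causes of these shifts were not tested.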
